A study of Bos taurus with 20 samples.

Results

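The miR-191 and miR-425 cluster is a pair of microRNA (miRNA) hairpins that are cut from a single primary transcript. Its members were the rows of the deposited table named bta-miR-191 or bta-miR-425, with or without an arm suffix, and 3 of the 1029 miRNAs listed met this rule, namely bta-miR-191, bta-miR-425-5p and bta-miR-425-3p. Small RNA was sequenced from spermatozoa of 20 mature Holstein-Friesian AI bulls, 10 of high (HF) and 10 of low (LF) fertility by a fertility score adjusted for herd, cow and service effects. Each library held the RNA of 1 bull, from frozen-thawed straws of 3 ejaculates that were pooled and then cleared of somatic cells by lysis, and the ejaculates of both groups had passed the AI centers' checks of motility and morphology. The labels separate the groups by fertility alone and name no treatment. Values are normalized counts, meaning reads on a miRNA on the CPM scale after the authors' TMM scaling, which corrects library sizes for differences in composition.

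A miRNA hairpin is cut by Drosha and Dicer into a short duplex, of which 1 strand is usually kept by an Argonaute protein to silence mRNAs that pair with its seed. The strand from the left arm is named 5p and that from the right arm 3p. In mammals miR-191 and miR-425 lie close together in an intron of DALRD3, a gene whose protein takes part in tRNA methylation, and are co-transcribed with it. Both are widely expressed, are abundant in blood cells and have been studied in cell proliferation, and miR-191 is often used as a reference for the normalization of miRNA assays because its level varies little between samples. Spermatozoa are transcriptionally silent, so their miRNAs were made earlier in spermatogenesis or were taken up in the epididymis.

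In the RefSeq gene table of the bovine ARS-UCD2.0 assembly, MIR191, MIR191B and MIR425 follow each other on chromosome 22, between NDUFAF3 and DALRD3. MIR191B lies inside the span of MIR191, and the span listed for DALRD3 reaches none of these hairpin genes. Since the reads were aligned to ARS-UCD1.2, no coordinates are given. bta-miR-191b, which the rule does not include, was nearly absent, with 19 reads over all 20 libraries against 704826 reads of bta-miR-191. These 19 reads came from 9 libraries, with at most 8 in any of them. Divided by the value of 1 read, the members gave whole reads in all 20 libraries, within 0.02 reads.

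The libraries held between 103204 and 3097581 reads on miRNAs (median 1092881), and both extremes were HF bulls. The members were counted well above the floor of 3 reads in every bull. bta-miR-191 had between 4148 and 85913 reads, bta-miR-425-5p between 512 and 12600, and bta-miR-425-3p between 21 and 454. In the shallowest library, HF replicate 17, the 21 reads of bta-miR-425-3p were 0.0203% of all miRNA reads (95% Wilson interval 0.0133% to 0.0311%). Such intervals cover counting error only, as PCR copies are not independent molecules. The germ line miRNAs bta-miR-34c and bta-miR-449a were counted in all 20 bulls, with medians of 37782 and 7477 in HF and 32676 and 7981 in LF.

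bta-miR-191 was among the most abundant miRNAs of bull spermatozoa and ranked 6 of 1029 by mean normalized count. It made up 3.12% ± 0.444 (SD, n = 20) of all miRNA reads, and its rank within a library lay between 5 and 9. Above it in the order was bta-miR-34c, a miRNA of the male germ line, at 35782 ± 8657 (SD, n = 20), and bta-miR-191 exceeded it in 4 of 20 bulls. Below it was bta-miR-27a-3p at 26518 ± 6463 (SD, n = 20), which bta-miR-191 exceeded in 16 of 20 bulls. The order within a bull thus varied, and these differences were not tested.

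bta-miR-425-5p, the main product of the other hairpin, ranked 27 and made up 0.532% ± 0.207 (SD, n = 20) of the reads. Its neighbours in the order, bta-miR-6526 and bta-miR-30e-5p, had means of 5331 and 5225 against 5233 for bta-miR-425-5p, which was higher than them in 7 and 11 of 20 bulls. bta-miR-425-3p, from the opposite arm, ranked 119 and made up 0.0192% ± 0.00324 (SD, n = 20) of the reads. Its rank within a library lay between 106 and 137. Together the members took 3.67% ± 0.530 (SD, n = 20) of all miRNA reads, from 2.75% to 4.61%.

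The comparison of HF with LF bulls asked whether the level of these miRNAs differed with fertility. The mean level of bta-miR-191 was 32551 ± 3575 (SD, n = 10) among HF bulls against 29946 ± 5113 (SD, n = 10) among LF bulls, as normalized counts. The HF bulls ranged from 25709 to 38125 with a median of 32478, and the LF bulls from 22605 to 38049 with a median of 30091. The groups overlapped over nearly their whole range. In bulk RNA of this kind, fewer cells that carry a miRNA and less of it per cell cannot be told apart. Only 1 HF bull was above the highest LF bull and only 2 LF bulls, replicates 4 and 7, were below the lowest HF bull, while 8 of 10 HF bulls exceeded the LF median. On the log2 scale, bta-miR-191 was higher in HF than in LF by 0.13 ± 0.11 (SE, with p = 0.25 and adjusted p = 0.94 by limma). In linear terms this was a fold change of 1.10, with a 95% confidence interval of 0.933 to 1.29 that did not reach 1.5-fold.

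**Figure D1:**
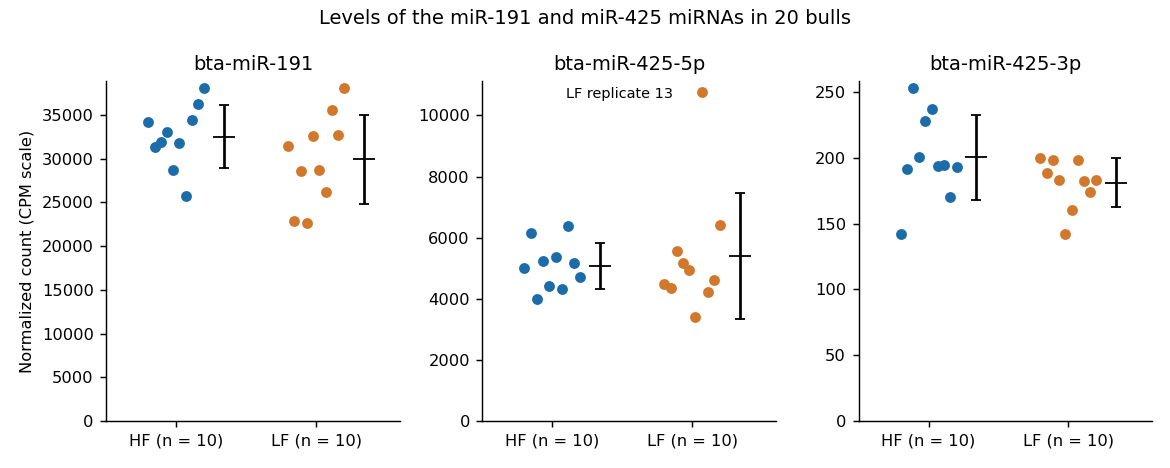
Normalized counts (y axis, CPM scale, from 0) of bta-miR-191, bta-miR-425-5p and bta-miR-425-3p in the 10 HF (blue) and 10 LF (orange) bulls, with 1 point per bull and the mean ± SD beside them in black. The groups overlap for each miRNA, and LF replicate 13 stands alone at 10756 for bta-miR-425-5p.

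For bta-miR-425-5p the mean normalized count was 5073 ± 763 (SD, n = 10) among HF bulls against 5394 ± 2052 (SD, n = 10) among LF bulls. The HF bulls ranged from 3990 to 6369 with a median of 5096, and the LF bulls from 3407 to 10756 with a median of 4778. The wide range in LF came from a single bull, LF replicate 13, which was at 10756 while the other LF bulls lay at or below 6418. The log2 difference of HF from LF was -0.032 ± 0.16 (SE, with p = 0.84 and adjusted p = 0.98 by limma), a fold change of 0.978 with a 95% confidence interval of 0.779 to 1.23. The direction was not fixed by these data, as without LF replicate 13 the log2 difference became 0.086 (p = 0.50 by limma). It also turned positive without HF replicate 6 (0.0048) and without LF replicate 20 (0.0037).

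bta-miR-425-3p, the strand that is usually discarded, averaged 200.5 ± 32.3 (SD, n = 10) normalized counts among HF bulls and 181 ± 18.4 (SD, n = 10) among LF bulls. The HF bulls ranged from 142 to 253 with a median of 194, and the LF bulls from 142 to 200.1 with a median of 184. By normalized count, 4 HF bulls were above the highest LF bull, and 8 of 10 HF bulls exceeded the LF median. The lowest of these 4, HF replicate 9, was at 200.9 against 200.1 in LF replicate 1. This separation depended on the scaling. By share of all miRNA reads, the highest HF bull was replicate 6 at 0.0248%, and the highest LF bull was replicate 13 at 0.0246%. The log2 difference of HF from LF was 0.14 ± 0.14 (SE, with p = 0.33 and adjusted p = 0.96 by limma), a fold change of 1.10 with a 95% confidence interval of 0.904 to 1.33.

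A miRNA was called where p was under 0.05 before adjustment and the levels differed by more than 1.5-fold. Of the 3 members 0 were called with limma, beside 9 of all 435 miRNAs tested (2.07%), 4 of them higher (0.92%) and 5 lower (1.15%) in HF bulls. After adjustment 0 miRNAs (0%) were under 0.05 with limma, with edgeR's likelihood ratio and quasi-likelihood tests and with DESeq2. Before adjustment 15 (3.45%), 16, 18 and 18 miRNAs were under 0.05 with these tests, and 0 members with limma. Over all 435 the median log2 difference was 0.0051. The confidence intervals of the 3 members all lay within a 1.5-fold change in either direction, while smaller differences could not be told from none at this spread between bulls.

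Since bta-miR-191 is widely used as a reference miRNA, its difference between the groups was set beside a list of 18 other miRNAs that have served as references in miRNA assays. All 18 were counted and tested, 0 were higher and 1 was lower in HF bulls by the call above, and their median log2 fold change was -0.0013 with 9 of 18 above 0. The 1 that passed was bta-miR-361, a rare miRNA here, at -1.06 ± 0.44 on the log2 scale (SE, with p = 0.024 and adjusted p = 0.94 by limma). For the abundant bta-miR-186 the log2 difference was 0.27 ± 0.12 (SE, with p = 0.036 and adjusted p = 0.94 by limma), which is under 1.5-fold. bta-miR-103, the other classical reference, was at 0.16 ± 0.15 (SE, with p = 0.30 by limma), beside 0.13 for bta-miR-191.

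**Figure D2:**
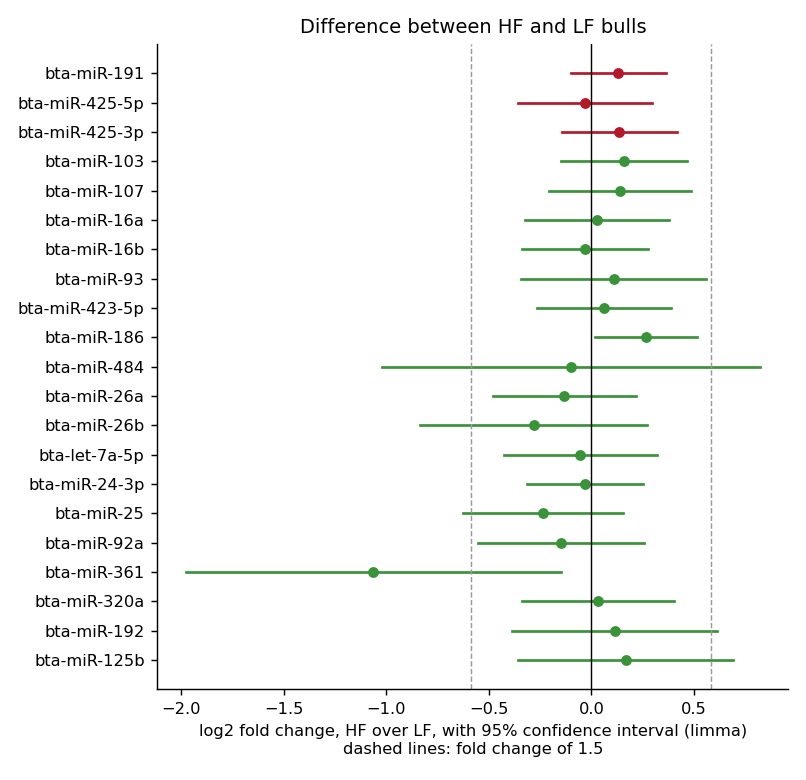
log2 fold change of HF over LF (x axis, points) with its 95% confidence interval (lines) from limma for the 3 members (red) and the 18 reference miRNAs (green), with dashed lines at a fold change of 1.5. The intervals of the members include 0 and stay between the dashed lines, whereas that of bta-miR-361 lies below 0 and that of bta-miR-186 above 0.

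The spread between bulls was small for bta-miR-191. Its SD within groups was 0.21 on the log2 scale, the fourth lowest of the 435 miRNAs tested, whose median was 0.70. That of bta-miR-425-3p was 0.20, the lowest of all 435, although it was a far rarer miRNA, and that of bta-miR-425-5p was 0.35, the 54th lowest. Among the 18 reference miRNAs the SD ranged from 0.24 (bta-miR-186) to 1.07 (bta-miR-361) with a median of 0.41. None of them varied less than bta-miR-191, and 6 varied less than bta-miR-425-5p. However, 0 of the 18 had a higher mean level than bta-miR-191, so level and spread are not separated in this comparison. Most rare miRNAs had a larger SD, as the plot of spread against level shows, so these places were also taken among the 61 miRNAs tested with a median of at least 1000 reads, of which 2 varied less than bta-miR-191 and 26 less than bta-miR-425-5p.

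Counting error made up a very small part of the spread of bta-miR-191, with an SD of 0.0098 expected from the reads alone. For bta-miR-425-5p it was 0.025, and for bta-miR-425-3p it was 0.13 beside the 0.20 observed. Counting error was thus not negligible for bta-miR-425-3p, although SDs do not add up as shares. The order of the members depended on the scaling. With CPM without the TMM factor the SD was 0.21 for bta-miR-191, 0.42 for bta-miR-425-5p and 0.26 for bta-miR-425-3p, which placed them 5th, 76th and 14th of 435. With reads scaled to the library total without bta-miR-100, the most abundant miRNA, bta-miR-191 had the lowest SD of all at 0.18, and bta-miR-425-3p was 8th at 0.22. Without LF replicate 13 the SD of bta-miR-425-5p fell to 0.24, the 11th lowest, and those of bta-miR-191 and bta-miR-425-3p were 0.21 and 0.20.

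**Figure D3:**
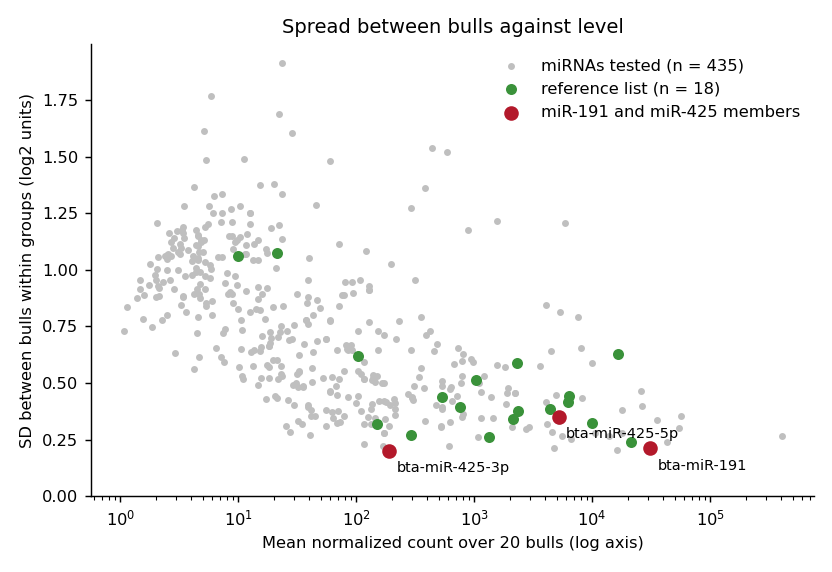
SD between bulls within groups of log2(normalized count + 1) (y axis, log2 units) against the mean normalized count over 20 bulls (x axis, log scale) for the 435 miRNAs tested (grey), 18 reference miRNAs (green) and the 3 members (red). bta-miR-191 at 0.21 and bta-miR-425-3p at 0.20 lie at the lower edge of the cloud, and bta-miR-425-5p at 0.35 lies among the reference miRNAs.

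Within the cluster, bta-miR-191 gave most of the reads. It made up 85.1% ± 4.05 (SD, n = 20) of the reads of the 3 members, with 14.4% ± 4.03 (SD, n = 20) from bta-miR-425-5p and 0.530% ± 0.108 (SD, n = 20) from bta-miR-425-3p. The level of bta-miR-191 was on average 6.29 ± 1.46 (SD, n = 20) times that of bta-miR-425-5p, from 2.44 in LF replicate 13 to 8.43. The ratio does not depend on the scaling, as both miRNAs come from the same library. On the log2 scale it was 2.69 ± 0.22 (SD, n = 10) among HF and 2.52 ± 0.53 (SD, n = 10) among LF bulls. The difference of 0.16 (95% interval -0.22 to 0.55) did not exceed the variation among bulls (permutation test, two-sided, p = 0.42, adjusted p = 0.42 over 2 ratios). Without LF replicate 13 the difference was 0.026 (permutation test, p = 0.84).

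From the miR-425 hairpin, the 5p arm was the dominant product in every bull, with 96.3% ± 0.921 (SD, n = 20) of the reads of both arms, from 94.0% to 98.2%. The level of bta-miR-425-5p was between 15.8 and 54.2 times that of bta-miR-425-3p. HF replicate 6 was at the lower end, with the lowest bta-miR-425-5p and the highest bta-miR-425-3p of the HF bulls, and LF replicate 13 at the upper end. The log2 ratio of the 5p to the 3p arm was 4.66 ± 0.37 (SD, n = 10) among HF and 4.82 ± 0.41 (SD, n = 10) among LF bulls. The difference was -0.17 (95% interval -0.53 to 0.20), which did not exceed the variation among bulls (permutation test, two-sided, p = 0.36, adjusted p = 0.42 over 2 ratios). Without LF replicate 13 this difference was -0.064 (permutation test, p = 0.67).

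LF replicate 13 was the bull in which the members parted most. There bta-miR-425-5p was 2.33 times the median of the other LF bulls, while bta-miR-191 was 0.833 and bta-miR-425-3p 1.08 times that median. Its bta-miR-425-5p rested on 5851 reads, 1.33% of all miRNA reads (95% Wilson interval 1.30% to 1.37%), so the counting error was small. The library held 438649 reads, its share of bta-miR-100 was 31.0% against at least 36.0% in the other bulls, and its implied TMM factor was 1.24 against at most 1.14. It was the highest of the 20 bulls for 21 of the 193 miRNAs tested with a median of at least 50 reads. This was 10.9%, against 5.0% for an even share of 1 in 20. By the fold over the other LF bulls, bta-miR-425-5p was 9th of these 193. The summed level of 7 blood cell miRNAs was 239 in LF replicate 13, the fourth highest of 20, within ranges of 98.1 to 277 in HF and 80.2 to 316 in LF. Of these, bta-miR-142-5p, which gave the largest part of the sum, was at 107 against an LF high of 259.6, bta-miR-223 was at 1.84 against 6.18 and bta-miR-144 was at 0. The other 4, bta-miR-142-3p, bta-miR-150, bta-miR-451 and bta-miR-486, were at their highest among LF bulls. So were the epithelial bta-miR-200c (564) and bta-miR-429 (322) and the germ line bta-miR-449b (255.5). A single read was worth 1.84 in this library, so the 4 blood cell miRNAs, at 14.7 to 53.3, rested on few reads. Over all miRNAs, no count of highest values among LF bulls alone was made. The sum of 6 epithelial miRNAs was 12476 (HF 6544 to 13137, LF 9680 to 15554), that of 4 muscle miRNAs was 403 (HF 119 to 1584, LF 101 to 1978), and that of the 5 germ line miRNAs was 40881 (HF 32093 to 77203, LF 25829 to 54584). Of these 22 markers, 0 of the 20 that were tested were called between HF and LF (limma), beside 9 of all 435 miRNAs (2.07%). At that share, 0 of 20 says little about the cell content of either group. The part of these markers in the level of bta-miR-425-5p was not tested.

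As bta-miR-191 and bta-miR-425-5p come from a shared transcript, their levels were compared across bulls. No relation was detected over all bulls, with a Pearson's r of 0.0056 (permutation test, p = 0.98) and a Spearman's rho of 0.16 (permutation test, p = 0.50) over 20 bulls, and adjusted p-values of 0.98 and 0.63 over the 3 pairs of members. Within HF bulls r was 0.36 (n = 10, permutation test, p = 0.32) and within LF bulls -0.082 (n = 10, permutation test, p = 0.83). Without the 2 bulls farthest from the median of bta-miR-191, LF replicates 4 and 7, r was -0.090 (permutation test, p = 0.73), and without LF replicate 13 it was 0.31 (permutation test, p = 0.20) with a rho of 0.29 (permutation test, p = 0.23). The scaling moved r in both directions, to 0.28 with CPM without the TMM factor (permutation test, p = 0.23) and to -0.097 with the library total without bta-miR-100 (permutation test, p = 0.68).

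**Figure D4:**
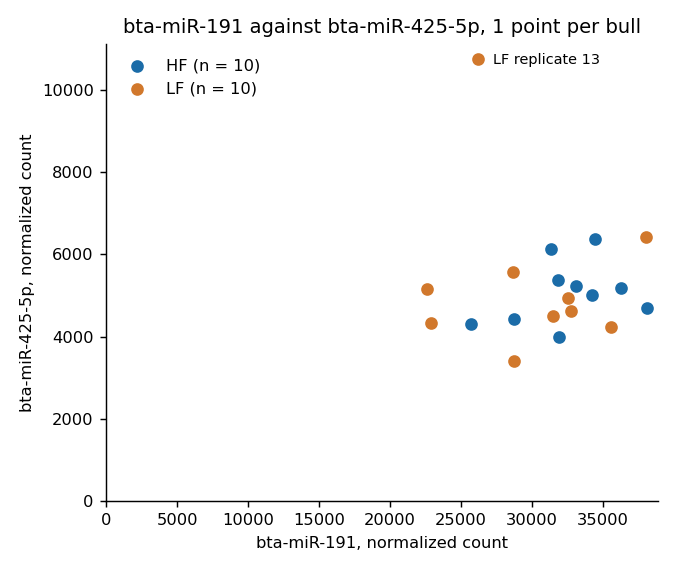
Normalized count of bta-miR-425-5p (y axis) against that of bta-miR-191 (x axis), both from 0, with 1 point for each of 10 HF (blue) and 10 LF (orange) bulls. LF replicate 13 lies far above the other bulls at 10756, and Pearson's r is 0.0056 with this bull and 0.31 without it (permutation tests, p = 0.98 and 0.20).

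No relation was detected between the arms of the miR-425 hairpin either. For bta-miR-425-5p and bta-miR-425-3p, r was 0.060 (permutation test, p = 0.79) and rho was 0.11 (permutation test, p = 0.63). Within HF bulls r was -0.32 (n = 10, permutation test, p = 0.37), within LF bulls 0.40 (n = 10, permutation test, p = 0.23), and without LF replicates 11 and 13, the farthest from the median of bta-miR-425-5p, it was -0.17 (permutation test, p = 0.50). For bta-miR-191 and bta-miR-425-3p, r was -0.13 (permutation test, p = 0.57) and rho was -0.20 (permutation test, p = 0.38), with r at -0.34 in HF, -0.24 in LF and -0.22 without LF replicates 4 and 7 (permutation tests, p = 0.33, 0.52 and 0.37). Adjusted over the 3 pairs, these p-values were 0.98 for r and 0.63 for rho. With depth, the log2 reads per library, r was -0.077 for bta-miR-191, 0.0098 for bta-miR-425-5p and -0.082 for bta-miR-425-3p. The permutation p-values were 0.75, 0.96 and 0.73, or 0.96 after adjustment over these 3, and rho lay between -0.048 and 0.13 (adjusted p = 0.84, permutation tests). Without the shallowest libraries, HF replicate 17 and LF replicate 11, these r became 0.18, -0.34 and -0.26 (permutation tests, p = 0.47, 0.17 and 0.29).

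Other pairs of miRNAs from shared primary transcripts were described in the same way, by the r of their deviations from the group means. Of 9 such pairs, 7 had at least 50 reads of both miRNAs in the median library. Their r ranged from 0.11 for bta-miR-93 and bta-miR-25 to 0.95 for bta-miR-449a and bta-miR-449b, with a median of 0.54, against 0.022 for bta-miR-191 and bta-miR-425-5p. All 7 were higher, although without LF replicate 13 the value for bta-miR-191 and bta-miR-425-5p was 0.27 and 6 of 7 were higher. The SD of the log2 ratio within groups was 0.41 for bta-miR-191 and bta-miR-425-5p, which was within the range of the other pairs, from 0.22 (bta-miR-34b and bta-miR-34c) to 0.79 (bta-miR-182 and bta-miR-183), and 3 of the 7 had a smaller one. These values are a description, and whether the pairs differed was not tested.

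**Figure D5:**
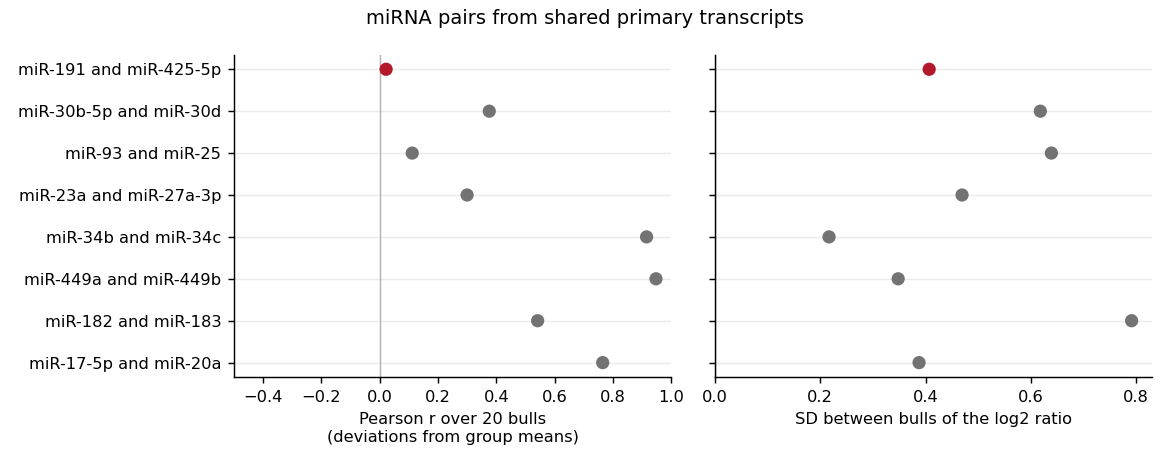
Pearson's r over 20 bulls of the deviations from the group means (left, x axis) and SD between bulls of the log2 ratio within groups (right, x axis) for bta-miR-191 and bta-miR-425-5p (red) and 7 other pairs of miRNAs from shared primary transcripts (grey). The red point has the lowest r, 0.022, and an SD of 0.41 that lies within the range of the others.

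The miRNAs whose levels followed the members most closely across bulls were taken from 190 others with at least 50 reads in the median library, by the r of the deviations from the group means. For bta-miR-191 these were bta-miR-6529a (r = 0.76), the row named bta-miR-24 without an arm suffix (r = 0.63) and bta-miR-342 (r = 0.59). For bta-miR-425-5p they were bta-miR-204 (r = 0.74), bta-miR-218 (r = 0.73) and bta-miR-153 (r = 0.73), and without LF replicate 13 their r was 0.77, 0.68 and 0.78. All 3 were at their highest among LF bulls in LF replicate 13. There bta-miR-204 was at 14526 against at most 13956 in the other LF bulls, and bta-miR-153 at 134 against 126. These 3 were picked by an r that included LF replicate 13, where bta-miR-425-5p was itself highest. Their high values in that bull are thus partly built into the choice and are not a separate observation. The choice was not repeated without this bull. In the same order, bta-miR-425-5p stood 104th for bta-miR-191, and bta-miR-425-3p stood 97th for bta-miR-425-5p. As the highest of 190, these r are a description and were not tested.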

How the data were processed

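Small RNA libraries of 20 bulls, 10 HF and 10 LF by the labels, were used. The authors removed adapters with Cutadapt, kept short reads, removed other short RNA species, aligned to ARS-UCD1.2 with Bowtie and counted mature miRBase miRNAs with miRDeep2. The deposited signal is each miRNA's count after the authors divided it by library size and a TMM factor. Whole reads were recovered by division by the commonest low value of each library, the smaller of 2 where they tied, and 95.0% of the values above 0 came out whole within 0.02 reads. In HF replicate 6 the smallest value was a fraction of that step.

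miRNAs under 1 in at least 10 bulls were removed, which left 435. The main test was limma 3.58.1 (variance trend, R 4.3.3) on log2(normalized count + 1), which understates changes of rare miRNAs, with Benjamini-Hochberg adjustment. edgeR 4.0.16 and DESeq2 1.42.0 were run on the recovered reads. Single values were tested with 100000 permutations (scipy 1.17.1). The limma and edgeR fits were tested on simulated data. Intervals of a ratio's difference use the pooled SD of bulls. Spread was the SD within groups.

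The members, the reference list, the pairs and the markers were chosen with earlier results of these data known. Named are those, bta-miR-191b, and the 3 miRNAs most like each of bta-miR-191 and bta-miR-425-5p. LF replicate 13 was singled out after seeing the data. Mature sequences were not used here. Ejaculates were pooled per bull, so p-values measure the spread between bulls.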

Additional observations from a re-analysis of the deposited data

Results flagged for a closer look

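A bull was set apart where its gap to the nearest bull of its group exceeded the share of the group's range that is Dixon's 95% critical value for 10 bulls. Of 12 groups checked, 3 held such a bull, where chance gives about 1 in 20 groups, or 0.6 here. All 3 were LF replicate 13 and all share bta-miR-425-5p, so they are a single pattern. The gap was 0.590 of the range for the normalized count of bta-miR-425-5p. This level was checked on the linear scale only. A log2 scale draws a single high value closer to the others, so the flag may not hold there. For the log2 ratio of bta-miR-191 to bta-miR-425-5p the gap was 0.473. For that of bta-miR-425-5p to bta-miR-425-3p it was 0.467, barely over the critical value. The log2 ratios in this bull were 1.29 and 5.75, against LF means of 2.52 and 4.82. The other 9 LF bulls had a mean bta-miR-425-5p of 4798 ± 864 (SD, n = 9), beside 5073 ± 763 (SD, n = 10) in HF. Whether this is a property of the bull cannot be told from 1 library.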

How the results depend on the processing

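Over 90 alternative fits of the 3 members, 0 reached the thresholds and 3 turned direction, all for bta-miR-425-5p. The fit without HF replicate 17 is also that without the shallowest library, and it is counted under both names. Leaving out 1 bull at a time gave a log2 fold change between 0.089 and 0.17 for bta-miR-191, between -0.098 and 0.086 for bta-miR-425-5p (positive without HF replicate 6, LF replicate 13 or LF replicate 20) and between 0.096 and 0.19 for bta-miR-425-3p. The other alternatives gave 0.069 to 0.15, -0.12 to -0.032 and 0.073 to 0.15. The number of all miRNAs past the thresholds, 9, became 13 and 12 with edgeR's quasi-likelihood and likelihood ratio tests and 11 with DESeq2. It became 10 with CPM without the TMM factor and 8 with the total without bta-miR-100. It was 1 with a pseudocount of 10 and 15 of 731 with no filter. With at least 10 reads in every bull it was 0 of 158, with 5 at an unadjusted p under 0.05 (limma). It lay between 7 and 15 with a bull left out (15 without HF replicate 6, 14 without LF replicates 1, 11 or 13). The difference in the ratio of bta-miR-191 to bta-miR-425-5p lay between 0.026 and 0.22, and that of the arms between -0.22 and -0.064. The r of bta-miR-191 and bta-miR-425-5p was -0.097 with the total without bta-miR-100 and 0.28 with CPM without the TMM factor, and between -0.078 and 0.31 with a bull left out (negative without HF replicates 10, 14 or 15 or LF replicates 4, 11 or 20). The cause of these changes was not tested. The CPM without the TMM factor moved the median of all miRNAs to -0.052. No paired analysis was possible because the HF and LF groups hold different bulls. Depth limits bta-miR-425-3p, with 21 reads in the shallowest library.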
